A study of Mus musculus with 5 samples.

Results

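The 10 immediate early genes followed here are Fos, Fosb, Jun, Junb, Jund, Egr1, Atf3, Ier2, Nr4a1 and Zfp36, taken by gene symbol from the 27998 genes of the count tables of a single-cell RNA-seq study of the mouse temporomandibular joint (TMJ) disc. The disc is the fibrocartilage plate between the jaw condyle and the skull, and it was digested with Pronase and then Collagenase P before cells were captured. There were 5 libraries, 1 for each condition, all labelled as WT mice of the C57BL/6 strain. The normal discs were taken at 3 d (newborn pups of both sexes) and, from males, at 3 w (juvenile), 16 w (adult) and 78 w (aged). The injured discs came from mice whose discs were pricked with a needle at 5 weeks of age and that were killed 2 weeks later, at 7 weeks. The labels call these mice WT, whereas the study's account of the injury operation names mice with the Myh11-CreER driver, which acts in mural cells, and a conditional tdTomato reporter (Tm fl/-). For such mice the study also describes tamoxifen at 5 weeks of age, begun 2 days before the injury, and an earlier killing for histology. Whether this applies to the injured library is not stated.

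Immediate early genes are switched on within minutes of a stimulus, without the need for new protein synthesis, by transcription factors that are already present and are activated by phosphorylation. Most of them encode transcription factors, among them the Fos and Jun families that pair to form the AP-1 complex, and their transcripts are short-lived. They respond to growth factors, mechanical load and injury, and also to the enzymatic digestion that single-cell protocols need, so that the level in a cell suspension can hold both a state of the tissue and a response to its handling.

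In the GENCODE annotation of GRCm38, Fos lies at chr12:85473890-85477273 on the plus strand, Fosb at chr7:19302696-19310051 on the minus strand, Jun at chr4:95049034-95052222 on the minus strand and Junb at chr8:84974484-84978718 on the minus strand. Jund lies at chr8:70698949-70700616 on the plus strand, Atf3 at chr1:191170296-191218039 on the minus strand, Ier2 at chr8:84661331-84662852 on the minus strand, Nr4a1 at chr15:101254269-101274795 on the plus strand and Zfp36 at chr7:28376784-28380253 on the minus strand. Jun, Junb, Jund and Ier2 have 1 exon in their longest principal transcript, Zfp36 has 2, Fos, Fosb and Atf3 have 4 and Nr4a1 has 8. Jun, Junb, Jund, Atf3 and Zfp36 each overlap 1 gene on the other strand, Prdx2 in the case of Junb, and none overlaps a gene on its own strand.

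The sequences just before the starts of 5 of these genes are shown because they are the windows that hold the core of the cAMP response element (CRE), a motif known from early gene promoters. Promoter windows of 250 bases were taken from RefSeq (GRCm38.p6), and those of 8 of the 10 genes were used, without Egr1 and Ier2. They were searched on both strands for the full CRE, TGACGTCA, for the AP-1 letters, which are TGANTCA, and for the EGR letters GCGNGGGCG. The box known from core promoters, TATAAA, and the CArG box were searched too, and so was the core of the CRE, TGACG, which was added after the sequences were seen. Capitals mark every match to one of these, and each line reads 5′ to 3′ on the strand of the gene, ending at the base before its RefSeq start. For Fosb, Atf3 and Nr4a1, and for Zfp36 among the windows not shown, that start lies inside the span that GENCODE gives the gene. For Junb and Jund it lies upstream of that span, and the Jund window ends at chr8:70697738.
Fos, chr12:85473640-85473889, plus strand: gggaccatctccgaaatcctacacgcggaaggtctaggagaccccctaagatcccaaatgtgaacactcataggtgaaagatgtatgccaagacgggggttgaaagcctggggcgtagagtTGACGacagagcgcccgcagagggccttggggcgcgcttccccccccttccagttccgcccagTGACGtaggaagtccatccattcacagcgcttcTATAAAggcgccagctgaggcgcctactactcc
Fosb, chr7:19310046-19310295, minus strand: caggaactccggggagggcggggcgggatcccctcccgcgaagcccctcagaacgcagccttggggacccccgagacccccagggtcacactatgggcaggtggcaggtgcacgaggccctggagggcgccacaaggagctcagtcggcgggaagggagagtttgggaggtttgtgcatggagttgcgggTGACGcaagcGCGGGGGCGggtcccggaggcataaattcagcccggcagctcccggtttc
Junb, chr8:84978749-84978998, minus strand: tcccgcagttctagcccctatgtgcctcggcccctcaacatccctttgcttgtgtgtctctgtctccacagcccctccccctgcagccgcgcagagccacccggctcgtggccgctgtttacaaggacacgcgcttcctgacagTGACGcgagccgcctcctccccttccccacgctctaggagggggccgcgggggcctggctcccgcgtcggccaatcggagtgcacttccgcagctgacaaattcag
Atf3, chr1:191183334-191183583, minus strand: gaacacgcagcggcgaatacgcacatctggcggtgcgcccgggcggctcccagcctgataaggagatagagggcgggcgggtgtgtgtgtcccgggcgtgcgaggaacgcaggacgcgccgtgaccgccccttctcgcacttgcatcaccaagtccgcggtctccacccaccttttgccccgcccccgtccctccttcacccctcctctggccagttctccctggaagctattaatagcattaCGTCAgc
Nr4a1, chr15:101266596-101266845, plus strand: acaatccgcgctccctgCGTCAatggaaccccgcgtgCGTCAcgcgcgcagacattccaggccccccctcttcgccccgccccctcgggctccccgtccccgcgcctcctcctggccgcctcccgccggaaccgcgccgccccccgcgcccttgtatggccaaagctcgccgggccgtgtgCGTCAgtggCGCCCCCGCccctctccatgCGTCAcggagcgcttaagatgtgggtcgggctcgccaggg

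The core TGACG stood in 5 of the 8 windows (Atf3, Fos, Fosb, Junb and Nr4a1), and in 17.8% of all 32851 promoter windows of this length. Nr4a1 held it 4 times and Fos 2 times. As this core was chosen with these sequences in view, its share among the 8 cannot be weighed against that of all windows. The EGR letters stood in Fosb, Nr4a1 and Zfp36, against 4.7% of all windows. TATAAA was found in Fos alone of the 8 genes, 33 to 28 bases before the start, against 12.4% of all windows, and the CArG box in Zfp36 alone, against 1.47%, within a stretch that GENCODE also annotates as exon. The full CRE and the AP-1 letters were in none of the 8 windows, against 1.55% and 6.75% of all windows. A match is a string of letters, not a measured binding site, and nothing is drawn from its absence.

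Cells were grouped into clusters with these genes and other early and stress genes left out of the features, and the clusters were named from marker genes. Of 13 clusters, 1, 2, 3, 6 and 10 were stromal-like, and held 10999 cells at 3 d, 7921 at 3 w, 7673 at 16 w, 8389 at 78 w and 6786 in the injured library. Endothelial (EC-like) cells numbered 376 to 1079 per library, macrophage (MPh-like) cells 114 to 575 and mural (MC-like) cells 110 to 358. The level of a gene is given as CPM, the unique molecular identifiers (UMIs, each 1 captured transcript) of the gene summed over the cells of a class, scaled to a common total of UMIs of those cells, and a ratio is the CPM of 1 library over that of another. With 1 library per condition there is no measure of the spread between mice and no test, and the 95% intervals cover counting error only.

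The injured library stood apart in depth, with a median of 3299 UMIs per cell against 7721 to 12496 in the 4 normal libraries and 31585993 UMIs against 88998394 to 125427849. Its median mitochondrial percent was the lowest, 1.82 against 2.56 to 4.72. The libraries shared 19 to 39 cell barcodes per pair, at most 0.416% of the smaller library. Over all genes measured in stromal-like cells, the median ratio of the injured library was 0.807 against 3 w and 0.833 against 16 w (log2 -0.31 and -0.26), so that ratios of the injured library near 0.8 are those of the typical gene. The other 3 medians in stromal-like cells lay between 0.941 and 0.964.

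In stromal-like cells the 10 genes together held 5264 CPM at 3 d, 9720 at 3 w, 14095 at 16 w, 9127 at 78 w and 8048 in the injured library. The sum was thus lowest in newborn and highest in adult discs, with juvenile and aged discs close to each other and the injured discs below both. The ratio was 1.85 for 3 w over 3 d (95% counting interval 1.84 to 1.85), 1.45 for 16 w over 3 w (1.45 to 1.45), 0.648 for 78 w over 16 w (0.646 to 0.649), 0.828 for injured over 3 w (0.824 to 0.832) and 0.571 for injured over 16 w (0.568 to 0.574). The last 2 share the injured library, and 3 w and 16 w are the ages on either side of the 7 weeks of the injured mice. Relative to the median gene the injured over 3 w ratio was 1.03, on the other side of 1.

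Of the 10 genes, 7 were lowest at 3 d, 5 were highest at 16 w and 3 were highest at 3 w. Of all 14333 genes, 25.2% were lowest at 3 d, 16.1% highest at 16 w and 24.7% highest at 3 w. Egr1 was highest at 3 d and Jund was highest in the injured library. Counting intervals of neighbouring libraries in these orders did not overlap for any of the 10, which had 3500 to 302774 UMIs per library here. Such counts give narrow intervals for any gene, and the share of all genes without overlap was not counted. The intervals say nothing of the spread between mice.

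**Figure D1:**
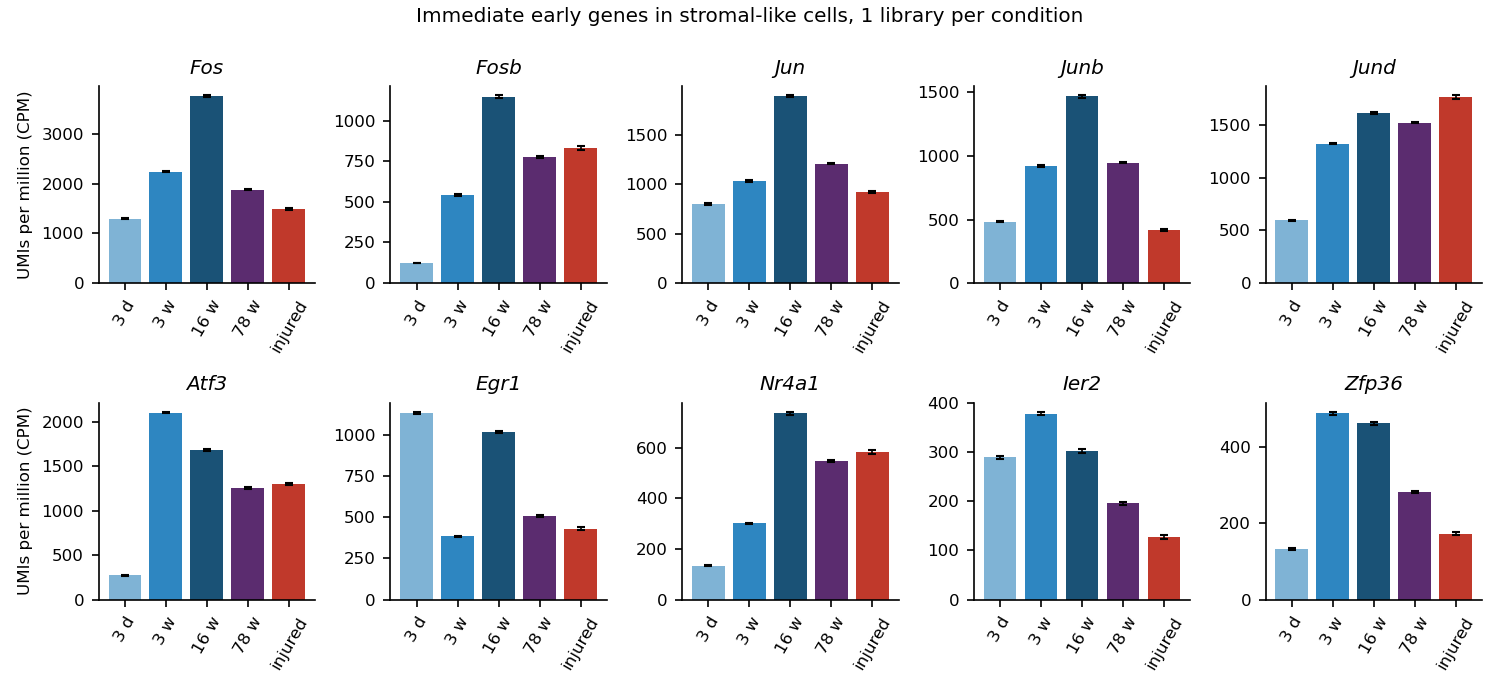
Level of each of the 10 genes in stromal-like cells by library; the vertical axis of each panel is CPM from 0, bars are 1 library each and error bars are 95% Poisson counting intervals. Egr1 has its tallest bar at 3 d and Jund in the injured library, while the other 8 peak at 3 w or 16 w.

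Fos, the founding member of its family and the partner that Jun proteins need for strong AP-1 activity, was at 1302 CPM in stromal-like cells at 3 d, 2246 at 3 w, 3772 at 16 w, 1886 at 78 w and 1497 in the injured library. It was highest in adult discs, with the aged and the injured discs well below the adult ones. Fos was 1.73 times higher at 3 w than at 3 d (1.71 to 1.74), 1.68 times higher at 16 w than at 3 w (1.67 to 1.69) and at 0.50007 times its adult level at 78 w (0.497 to 0.503). In the injured library it was 0.397 times the 16 w level (0.393 to 0.401).

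Fosb, whose shortened splice form is long-lived in many tissues, was at 124 CPM at 3 d, 543 at 3 w, 1149 at 16 w, 775 at 78 w and 831 in the injured library. Its newborn level stood far below all the others, and the aged and injured levels were close to each other. The ratios were 4.36 for 3 w over 3 d (4.28 to 4.45) and 2.12 for 16 w over 3 w (2.10 to 2.14), and the 16 w level was 9.23 times the 3 d level. Fosb was 1.53 times higher in the injured library than at 3 w (1.51 to 1.56), unlike Fos, which was at 0.666 (0.659 to 0.673).

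Jun, the main partner of Fos in AP-1, was at 800.4 CPM at 3 d, 1034 at 3 w, 1890 at 16 w, 1209 at 78 w and 922 in the injured library. It followed the order of Fos in the normal discs at a smaller range, except that 78 w stood above 3 w. Jun was 1.29 times higher at 3 w than at 3 d (1.28 to 1.30) and 1.83 times higher at 16 w than at 3 w (1.82 to 1.84). The injured over 3 w ratio was 0.892 (0.880 to 0.904), and 1.11 relative to the median gene.

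Junb, a Jun protein that often tempers Jun itself, was at 483 CPM at 3 d, 922 at 3 w, 1468 at 16 w, 948 at 78 w and 420 in the injured library. The injured library was the lowest of the 5 for this gene. Its injured over 16 w ratio, 0.286 (0.280 to 0.291), was the smallest of the 10 genes, at the 2.67th percentile of all genes in that comparison.

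Jund, a Jun protein kept at a steady level in many resting cells, was at 594 CPM at 3 d, 1321 at 3 w, 1610 at 16 w, 1523 at 78 w and 1765 in the injured library. After 3 d it moved little, and the injured library was highest. The ratios were 2.23 for 3 w over 3 d (2.21 to 2.25), 1.22 for 16 w over 3 w (1.21 to 1.23), 0.946 for 78 w over 16 w (0.939 to 0.953) and 1.10 for injured over 16 w (1.09 to 1.11). Jund was the only one of the 10 above 1 in that last ratio.

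Atf3, a stress-induced factor of the ATF/CREB family that can pair with Jun, was at 271 CPM at 3 d, 2102 at 3 w, 1685 at 16 w, 1253 at 78 w and 1299 in the injured library. The newborn library stood apart and the juvenile one was highest. Atf3 was 7.74 times higher at 3 w than at 3 d (7.65 to 7.84), the largest such ratio of the 10, at the 98.2th percentile of all genes.

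Egr1, a zinc-finger factor downstream of the MAP kinase ERK, was at 1134 CPM at 3 d, 384 at 3 w, 1019 at 16 w, 507 at 78 w and 431 in the injured library. It was high in newborn and adult discs and low in the 3 other libraries, a different order from that of the other 9 genes. From 3 d to 3 w the ratio of Egr1 was 0.339 (0.335 to 0.343), and it was 2.65 times higher at 16 w than at 3 w (2.62 to 2.69). The injured over 3 w ratio was 1.12 (1.10 to 1.14), but 0.883 with every cell at equal weight and 0.917 with the stromal-like clusters at equal weight.

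Nr4a1, an orphan nuclear receptor, was at 134 CPM at 3 d, 301 at 3 w, 736 at 16 w, 548 at 78 w and 583 in the injured library. It was lowest in newborn discs and highest in adult ones, and the injured level lay beside the aged one. The ratios were 2.26 for 3 w over 3 d (2.21 to 2.30), 2.44 for 16 w over 3 w (2.41 to 2.48), and 1.94 for injured over 3 w (1.90 to 1.97).

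Ier2, a small nuclear protein of early growth responses, was at 290 CPM at 3 d, 379 at 3 w, 303 at 16 w, 196 at 78 w and 127 in the injured library. It was highest in juvenile discs, lower in adult and aged ones and lowest in the injured library. The injured over 3 w ratio was 0.334 (0.323 to 0.346), the smallest of the 10 genes.

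Zfp36, which encodes tristetraprolin, a protein that binds AU-rich transcripts and speeds their decay, was at 132 CPM at 3 d, 488 at 3 w, 462 at 16 w, 282 at 78 w and 173 in the injured library. The juvenile and adult levels were close, and the injured level was nearest to the newborn one. Zfp36 was 3.70 times higher at 3 w than at 3 d (3.63 to 3.77), and 2.82-fold lower in the injured library than at 3 w (ratio 0.355, 0.345 to 0.366).

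A ratio of at least 2 or at most 0.5 was used as a fixed size to count genes, with no test behind it. In stromal-like cells, 5 of the 10 genes were at least 2-fold higher at 3 w than at 3 d (Fosb, Jund, Atf3, Nr4a1 and Zfp36), where 16.1% of all 13513 genes were, and Egr1 was at least 2-fold lower, where 19.1% were. With totals that leave out mitochondrial and ribosomal protein genes 3 were higher, against 11.1% of all genes, and Jund (1.81) and Nr4a1 (1.83) were not among them. At 16 w over 3 w, 3 were higher (Fosb, Egr1 and Nr4a1), against 5.58% of 12867 genes, and none was lower, against 5.81%. At 78 w over 16 w all 10 ratios were under 1, as was the median of all genes, 0.959. Of the 10, 1, that of Egr1, reached the 2-fold size, against 1.48% of 12643 genes, with Fos just outside. The share of all genes that were 2-fold higher there was 2.19%.

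In the injured library 3 genes were at least 2-fold lower than at 3 w (Junb, Ier2 and Zfp36), against 16.3% of 12426 genes, and none was 2-fold higher, against 6% of them. Set against 16 w, 6 were 2-fold lower (Fos, Jun, Junb, Egr1, Ier2 and Zfp36), against 13.7% of 12081 genes, and none was 2-fold higher, against 6.46% of them. Relative to the median gene 2 were 2-fold lower against 3 w, where 8.61% of all genes were, and 3 against 16 w, where 7.42% were. The median of the 10 ratios for injured over 3 w, 0.779, lay near that of all genes, 0.807, whereas for injured over 16 w it was 0.455 against 0.833.

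The same comparisons were made in the 3 other classes. In EC-like cells the sum of the 10 genes was 3098 CPM at 3 d, 12217 at 3 w, 12123 at 16 w, 13355 at 78 w and 6117 in the injured library. These cells were low in newborn and injured discs and nearly level in the other 3. In MPh-like cells the sums were 7688, 8564, 15543, 8032 and 5641 CPM in the same order of libraries, with adult discs standing alone at the top. In MC-like cells they were 4875, 11380, 19184, 19069 and 8967 CPM, with the adult and aged libraries level and highest. In the 4 classes the injured library was below each of 3 w and 16 w. Relative to the median gene this held for the geometric mean of the ratios of the 3 smaller classes, at 0.774 against 3 w and 0.515 against 16 w. Against 3 w the sum was at 0.501 in EC-like, 0.659 in MPh-like and 0.788 in MC-like cells. The median gene was at 0.822, 0.839 and 0.812 there, so the MC-like ratio lay near that of the typical gene.

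**Figure D2:**
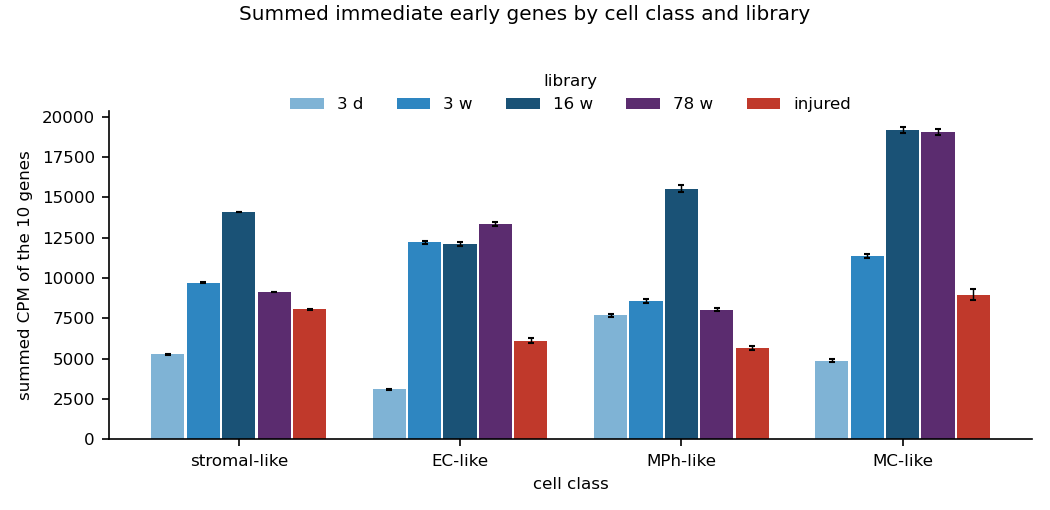
Summed CPM of the 10 genes (vertical axis, from 0) in 4 cell classes, with 1 bar per library and 95% Poisson counting intervals as error bars. The 78 w bar is below the 16 w bar in stromal-like and MPh-like cells, level with it in MC-like cells and above it in EC-like cells.

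Against 3 d, the sum was 3.94 times higher at 3 w in EC-like cells (3.89 to 4.00), 2.33 times in MC-like cells (2.29 to 2.38) and 1.11 times in MPh-like cells (1.10 to 1.13). In EC-like cells 8 of the 10 genes were at least 2-fold higher, against 15.9% of all 8914 genes, and in MC-like cells 6 were, against 18.8% of 6421. In MPh-like cells 1 was, against 13.9% of 6620, namely Fosb, and 1, Egr1, was 2-fold lower, against 9.94%. Of the 10 genes, 7 (Fos, Fosb, Jun, Jund, Atf3, Nr4a1 and Zfp36) were above 1 in all 4 classes, where 30.3% of 9008 genes were.

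From 3 w to 16 w, MPh-like cells had 4 of the 10 genes at least 2-fold higher (Jun, Egr1, Atf3 and Nr4a1), against 3.01% of 4944 genes, and MC-like cells had 3 (Fos, Egr1 and Zfp36), against 5.15% of 5512. In EC-like cells Egr1 alone was 2-fold higher, at 2.07, against 5.52% of 7606 genes. None of the 10 was 2-fold lower at 16 w, against 4.83% of all genes in EC-like, 5.3% in MPh-like and 7.24% in MC-like cells.

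From 16 w to 78 w the classes parted. The ratio of the sum was 0.648 in stromal-like and 0.517 in MPh-like cells (0.507 to 0.527), 0.994 in MC-like cells (0.980 to 1.01) and 1.10 in EC-like cells (1.09 to 1.12). All 10 genes were below 1 in stromal-like and MPh-like cells, and 9 of 10 were above 1 in EC-like cells, the exception being Egr1 at 0.927. The median of all genes was itself under 1, at 0.959 in stromal-like, 0.953 in MPh-like and 0.957 in EC-like cells. In MPh-like cells 6 of the 10 were at least 2-fold lower, against 1.75% of 4755 genes, and Fos was at 1796 CPM at 16 w and 710 at 78 w there. In EC-like cells Fos was at 2707 and 2955 CPM, and Junb at 1507 and 1758. These classes are small at 16 w, with 114 MPh-like cells.

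In the injured library over 16 w, 6 of the 10 genes were at least 2-fold lower in each of EC-like, MPh-like and MC-like cells, against 15.1%, 15.1% and 15.6% of all genes. All but Jund and Nr4a1, 8 genes, were below 1 in all 4 classes, where 27.9% of 9008 genes were. Nr4a1 in MC-like cells, at 149, 540, 965, 949 and 1164 CPM in the order of the libraries, was highest in the injured discs. Over 3 w, 6 of 10 were 2-fold lower in EC-like cells, against 14.2%, 4 in MPh-like cells, against 15.7%, and 2 in MC-like cells, against 17.6%. Nr4a1 in MC-like cells was the only one 2-fold higher there, at 2.16 times its 3 w level, against 5.55% of 4128 genes.

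**Figure D3:**
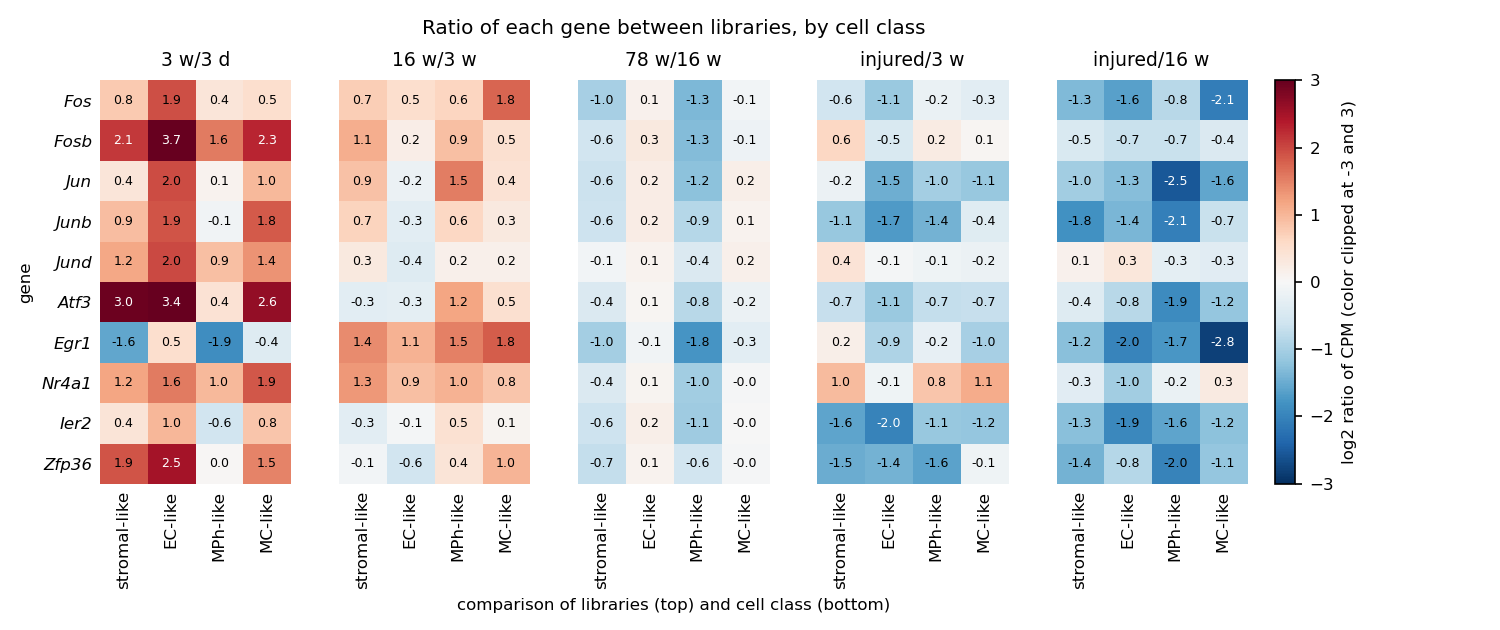
Log2 ratio of CPM between libraries for each gene (rows) in 5 comparisons, each split into 4 cell classes (columns); red is higher in the library named first, and the color is clipped at -3 and 3 while the printed values are not. The 78 w/16 w block is blue in stromal-like cells, except for Jund at -0.08, and in MPh-like cells, and it runs from -0.31 to 0.28 in EC-like and MC-like cells, while Jund lies between -0.43 and 0.42 in each comparison but 3 w/3 d.

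Transcripts of marker genes of other cell types were found in each class. Whether they were free RNA, came from doublets or were made by the cells themselves was not tested. Dcn, a proteoglycan gene of fibroblasts, was in EC-like cells at 17.4% to 24.2% of its stromal-like level in the 5 libraries, and Col1a1 at 15.4% to 27.2%. In MC-like cells Dcn was at 699 CPM at 3 d and 5755 CPM at 16 w, against 3177 and 27894 CPM in stromal-like cells. Summed over 10 stromal markers, EC-like cells held 7819 to 13158 CPM against 33521 to 66362 in stromal-like cells, and MPh-like cells of the injured library held 25370. In the other direction, 10 endothelial markers summed to 12.03 to 36.1 CPM in stromal-like cells. The part of RNA from other cells in the levels of the smaller classes was not tested. In newborn EC-like cells Atf3 was at 150 CPM, against 271 in stromal-like cells.

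Each gene's level over 4 classes and 5 libraries was split into a part that goes with the library, a part that goes with the class and a rest, on the log2(CPM + 1) scale. For the 10 genes the median share of the sum of squares that went with the library was 53.9%, and that with the class 16.9%, where the medians over all 9008 genes with enough UMIs were 40.4% and 33.8%. The library means of the 10 genes had a median SD of 0.73 log2 units, against 0.40 for all genes. The share was largest for Jund (85.3%) and Fosb (83.6%) and smallest for Zfp36 (45.5%) and Junb (48.5%). A share is of a gene's own variation, and in absolute terms Jund moved less, with an SD of library means of 0.61 log2 units against 1.22 for Fosb, 0.75 for Zfp36 and 0.70 for Junb. Nr4a1 had the largest share with the class, 40.2%, being highest in MC-like cells in all 5 libraries.

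**Figure D4:**
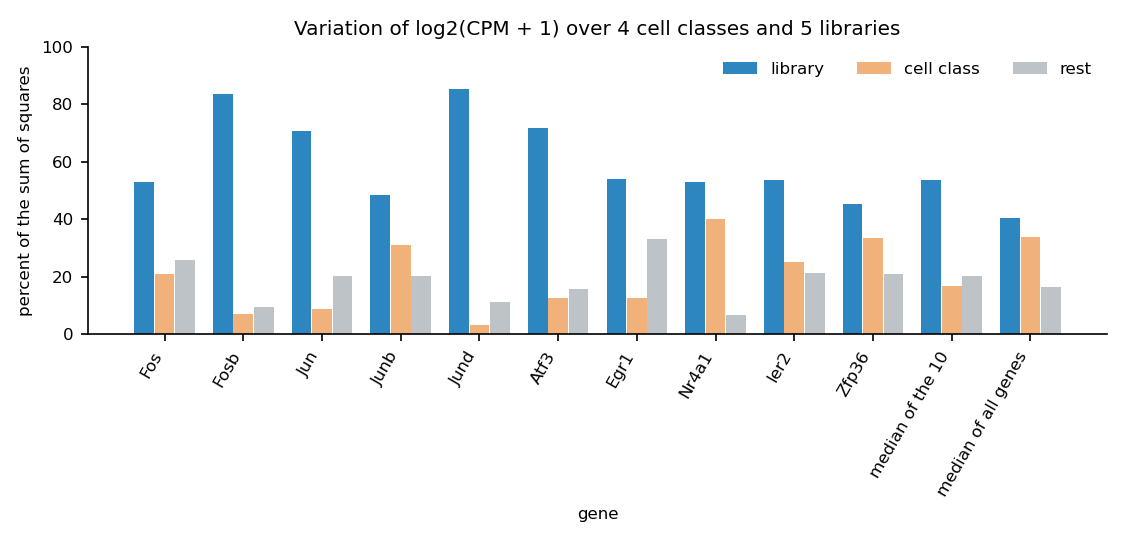
Percent of the sum of squares of log2(CPM + 1) over 4 cell classes and 5 libraries (vertical axis) that goes with the library, the cell class and the rest, for each gene and for the medians of the 10 genes and of all 9008 genes. The library bar is the tallest for each of the 10 genes.

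This split does not say what differs between libraries, since age, injury, handling, depth and the mice all change together with the library and cannot be told apart. Of the other gene lists, 32 further immediate early genes had a median library share of 51.4%, 15 heat shock and chaperone genes 57.8%, 12 genes that serve as steady references 46.4%, 12 MAP kinase feedback genes 32.2% and 14 NF-kappaB feedback and early cytokine genes 19.4%. The steady genes thus also went with the library, but over a smaller range, with a median SD of library means of 0.37 log2 units.

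Within the stroma the level depended on the cluster. Cluster 1 was led by Coch, Myoc and Spp1, cluster 2 by Cilp2, Dmkn and Clu, cluster 3 by Pi16, Clec3b and Mfap5, and cluster 6 by Ibsp and the cartilage collagen gene Col2a1. Cluster 10, led by cell-cycle genes, was nearly absent after 3 d. At 3 d most stromal-like cells were in clusters 1 (51.8%) and 3 (39.6%), and in the other libraries most were in clusters 2 (44.5% to 49.8%) and 1 (27.9% to 39.1%).

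At 16 w the 10 genes summed to 22496 CPM in cluster 3 and 21258 CPM in cluster 1, and to 8212 and 4934 CPM in clusters 2 and 6. At 3 w clusters 3, 1, 2 and 6 held 18277, 14353, 5869 and 2549 CPM, and at 78 w 13168, 14788, 6182 and 4154. In these 3 libraries clusters 1 and 3 stood well above clusters 2 and 6. At 3 d the sums were 5389, 5243, 3745 and 5103 CPM in that order of clusters, and in the injured library 7063, 9094, 7760 and 6724, so that in these 2 libraries the clusters were closer together. Fos at 16 w was at 6277 CPM in cluster 1, 7194 in cluster 3 and 1575 in cluster 2. Jund differed least between clusters, with 1904, 1936 and 1388 CPM there.

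The comparison of injured with juvenile discs turned with the cluster. Cluster 3 had a ratio of the sum of 0.386 (0.382 to 0.391) and cluster 1 of 0.634 (0.629 to 0.638), whereas cluster 2 stood at 1.32 (1.31 to 1.33) and cluster 6 at 2.64 (2.58 to 2.70). In cluster 3 all 10 genes were below 1, where 68.3% of all genes were, and in cluster 6 all but Ier2 were above 1, where 34.8% of all genes were. Nr4a1 was at 66.5 CPM at 3 w and 490 in the injured library in cluster 6, and Fos was at 267 and 1092. Against 16 w, clusters 3, 1 and 2 had ratios of 0.314, 0.428 and 0.945, and cluster 6 one of 1.36. The injured library had 300 cells in cluster 6.

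**Figure D5:**
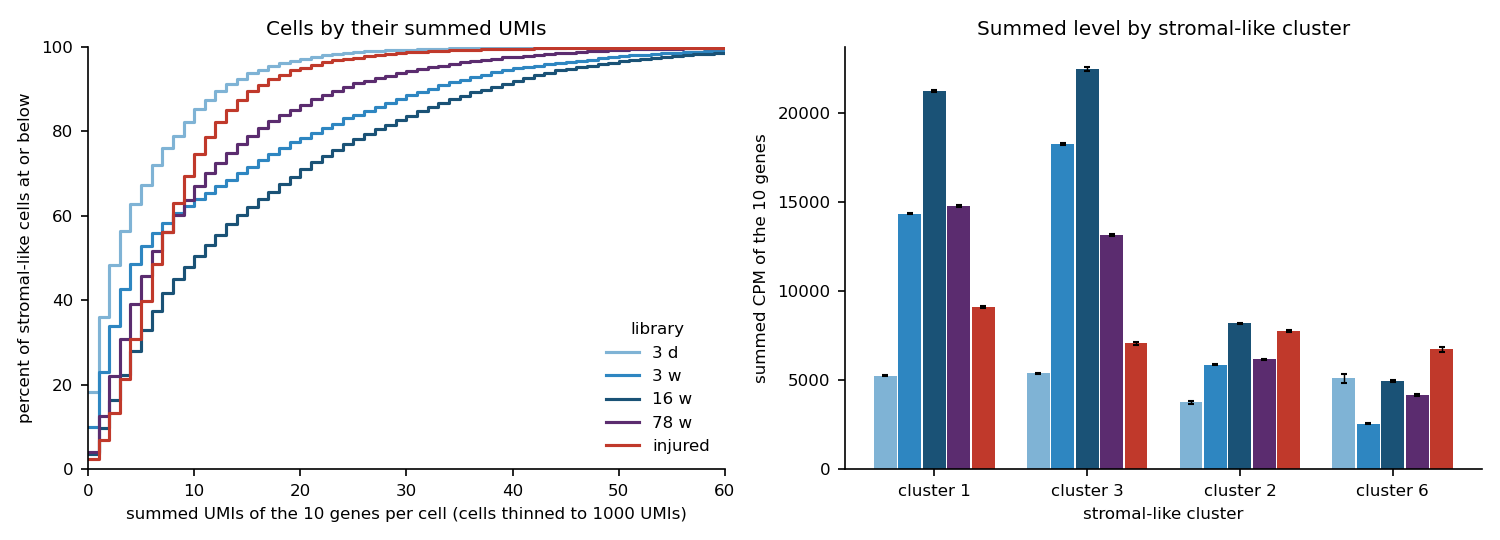
On the left, the percent of stromal-like cells (vertical axis) that held at most a given number of summed UMIs of the 10 genes when thinned to 1000 UMIs (horizontal axis), 1 line per library; on the right, the summed CPM of the 10 genes in 4 stromal-like clusters, 1 bar per library in the same colors, with 95% Poisson counting intervals. The injured line starts lowest and has passed the 3 w and 16 w lines at 20 UMIs, where it stands at 95.1% against 78.5% and 71.1%.

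To compare single cells at an equal depth, 1000 UMIs were drawn at random from every cell, leaving out shallower cells, 9 to 62 stromal-like cells per normal library and 315 of the injured one. The median cell then held 3 UMIs of the 10 genes at 3 d, 5 at 3 w, 10 at 16 w, 6 at 78 w and 7 in the injured library. Cells with none of them made up 18.2% at 3 d, 9.92% at 3 w, 3.56% at 16 w, 4.15% at 78 w and 2.30% in the injured library. The injured library thus had the fewest cells without these transcripts, although its summed CPM was below that of each of the libraries from 3 w on.

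Injured cells also differed in spread. Cells with more than 40 UMIs of the 10 genes made up 0.402% in the injured library and 0.183% at 3 d, against 5.07% at 3 w, 7.96% at 16 w and 2.29% at 78 w. The 10% of cells with the most such UMIs held 28.3% of them in the injured library and 31.8% to 38.2% in the normal ones. At 3 w cells were many at both ends, with 33.8% at 2 UMIs or fewer and 21.5% above 20. Among injured cells these shares were 13.4% and 4.91%, at 16 w 16.3% and 28.9%, at 78 w 21.98% and 13.7%, and at 3 d 48.2% and 2.82%.

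By gene, Jund was seen in 75.9% of thinned injured cells and 74.1% of adult ones, and in 40.3% at 3 d. Fosb was seen in 9.2% of cells at 3 d, 31.5% at 3 w, 50.2% at 16 w, 40.2% at 78 w and 48.7% in the injured library. Ier2 was seen in 11.1% of injured cells, the lowest of the 5 libraries, against 17.5% to 25.6%. Free RNA adds UMIs to cells that do not express a gene. A cell type known to lack these genes was not at hand, so no share is read as one of expressing cells. In erythroid-like cells, a cluster led by hemoglobin genes, the 10 genes summed to 1289 CPM at 3 d (400 cells). They summed to 5130 CPM at 3 w (25 cells), 1290 at 16 w (4), 3311 at 78 w (33) and 4325 in the injured library (74). In stromal-like cells the sums ran from 5264 to 14095 CPM. The part of free RNA in these levels was not tested.

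Across the stromal-like cells of a library the genes went together. Spearman's rho between 2 of the 10 genes in thinned counts had a median over the 45 pairs of 0.202 at 3 d, 0.475 at 3 w, 0.325 at 16 w, 0.275 at 78 w and 0.120 in the injured library, whereas the median between 1 of the 10 and a steady gene lay between -0.019 and 0.007. The highest pair was Fos and Junb at 3 w, with 0.724 over 7912 cells, and Fos and Egr1 at 3 d, 16 w and 78 w, with 0.544, 0.617 and 0.499. In the injured library it was Fos and Jun, with 0.390 over 6471 cells. The lowest pair in each library held Jund, as with Fos in the injured library (-0.033) or with Ier2 at 3 w (-0.003). The cells of a library share its preparation and its mix of clusters, and sparse counts can lower rho. The median thinned cell held 7 UMIs of the 10 genes in the injured library and 3 at 3 d, and the injured median rho was the lower. The part of count level in the differences of rho between libraries was not tested.

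The level also moved with the quality measures of the cells, differently by library. When the stromal-like cells of a library were split into 3 equal groups by mitochondrial percent, the sum of the 10 genes at 3 w was 6764 CPM in the lowest group and 15160 in the highest. At 3 d it was 6476 and 3681, at 16 w 18179 and 11412 and at 78 w 11168 and 7392, the other way round. In the injured library it was 8040 and 8145. By UMIs per cell, the group of the shallowest cells held 17970 CPM and the deepest 6404 at 3 w, with the same direction at 16 w (19847 and 11304) and 78 w (12617 and 7529), and the other direction at 3 d (4345 and 5619). In the injured library the groups by UMIs per cell held 8010 CPM in the shallowest, 8684 in the middle and 7718 in the deepest cells. The part of depth and of mitochondrial percent in the differences between libraries was not tested.

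Among the genes whose levels over the 20 combinations of class and library were most like the mean of the 10 were Zbtb10 (Pearson's r = 0.901), Per1 (0.887), Ppp1r15a (0.882), Zbtb16 (0.869), Ccnl1 (0.869), Chd4 (0.864), Mt2 (0.863), Ddit3 (0.859) and Sbno2 (0.852), of 9008 genes. The points share libraries, so these values are a description. Ppp1r15a, a gene of the integrated stress response, was at 117, 491, 601, 502 and 422 CPM in stromal-like cells in the order 3 d, 3 w, 16 w, 78 w and injured. Mt2, a metallothionein, was at 57.7, 1123, 5009, 2625 and 454 CPM. Of the 10 genes themselves, Jun (0.868) and Fos (0.854) were most like the mean of the other 9, and Egr1 (0.447) and Ier2 (0.513) least.

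Of the other immediate early genes, 33 of 34 listed were in the files and 32 had at least 100 UMIs in the compared libraries of the stromal-like class. At 3 w over 3 d, 18 of the 32 were at least 2-fold higher and 1 lower, against 16.1% and 19.1% of all genes, and at 16 w over 3 w 9 were higher, against 5.58%. In the injured library over 16 w, 16 were 2-fold lower, against 13.7% of all genes, and 1 was 2-fold higher, against 6.46%, namely Fosl1, at 34.3 against 15.7 CPM. Gadd45b, which encodes a stress sensor, was at 165 CPM in the injured library against 1288 at 16 w, and Gadd45g at 71.2 against 631. Klf4, a Kruppel-like factor, was highest in the injured library, at 2116 CPM against 1615 at 16 w and 249 at 3 d, and Klf2 was at 981 against 1502 at 16 w.

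MAP kinase feedback genes, which switch the upstream kinases off again, had 13 members. The values of this paragraph are for stromal-like cells unless another class is named. At 16 w over 3 w 5 of 13 were at least 2-fold higher and 1 lower, against 5.58% and 5.81% of all genes. This rise was not seen in EC-like cells, where none of 11 was higher and 1 was lower, against 5.52% and 4.83%. In MC-like cells none of 13 was higher and 4 were lower, against 5.15% and 7.24%. In MPh-like cells 2 of 7 were higher and 1 lower, against 3.01% and 5.3%. In stromal-like cells of the injured library over 16 w, 4 of 13 were lower and 1 higher, against 13.7% and 6.46%. Dusp1, a phosphatase of MAP kinases, was at 248, 531, 1938, 1737 and 406 CPM in the order of the libraries. Spry2, an inhibitor of receptor tyrosine kinase signalling, was at 25.7, 42.9, 64.2, 59.6 and 351 CPM. It had the same order as Dusp1 in the normal libraries but, unlike Dusp1, was highest in the injured library. Of 15 heat shock and chaperone genes 4 were 2-fold higher at 3 w than at 3 d, against 16.1% of all genes, and 4 were higher at 16 w than at 3 w, against 5.58%. Between the injured library and 16 w 1 was higher and 1 lower, close to or under the 6.46% and 13.7% of all genes. Against 3 w, 5 of 15 were higher in the injured library and none lower, where 6% and 16.3% of all genes were. Other classes differed. In MPh-like cells 12 of 14 were higher at 16 w than at 3 w, against 3.01%. There 11 of 15 were lower and 1 higher in the injured library than at 16 w, against 15.1% and 8.93%. In EC-like cells 3 of 15 were higher in that comparison, against 3.63%, and in MC-like cells 4 of 15, against 6.01%. For the injured library over 3 w, 5 of 15 were higher in EC-like cells, against 4.33%. In MPh-like cells 6 of 15 were, against 6.53%, and in MC-like cells 5 of 14, against 5.55%. Hspa1a, an inducible chaperone, was at 211, 375, 1134, 686 and 578 CPM in stromal-like cells.

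Of 10 metallothionein and oxidative stress genes, 8 were at least 2-fold higher at 3 w than at 3 d, against 16.1% of all genes. This is for stromal-like cells, the class meant in this paragraph unless another is named. Mt1 was at 170, 3089, 5557, 3606 and 1407 CPM. Its rise from 3 w to 16 w was not that of the list, whose median ratio was 0.692 there. In that comparison 1 of the 10 was 2-fold higher and 2 lower, against 5.58% and 5.81% of all genes. The lower level of Mt1 in the injured library than at 16 w was not that of the list either, whose median ratio was 1.025. There 2 of 9, Mt1 and Mt2, were 2-fold lower, against 13.7% of all genes, and none was higher, against 6.46%. Of 15 NF-kappaB feedback and early cytokine genes, 9 were 2-fold higher and 2 lower at 3 w than at 3 d, against 16.1% and 19.1% of all genes. In EC-like cells 10 of 14 were higher, against 15.9%, and in MC-like cells 12 of 12, against 18.8%. In MPh-like cells only 3 of 13 were higher and 1 lower, against 13.9% and 9.94%, with a median ratio of 0.662. Stromal-like cells of the injured library had 11 of 14 2-fold lower than at 3 w, against 16.3%. They had 7 of 14 lower and 1 higher than at 16 w, against 13.7% and 6.46%. In MPh-like cells 9 of 13 were lower and none higher than at 16 w, against 15.1% and 8.93%. In EC-like cells 3 of 11 were lower and 4 higher than at 16 w, against 15.1% and 3.63%. In MC-like cells 3 of 11 were lower and 2 higher than at 16 w, against 15.6% and 6.01%. Over 3 w, 11 of 13 were lower in MPh-like cells, against 15.7%. In EC-like cells 4 of 12 were lower over 3 w, against 14.2%, and in MC-like cells 5 of 12, against 17.6%. In stromal-like cells Nfkbia, the inhibitor of NF-kappaB, was at 538, 1013, 2109, 1983 and 801 CPM. From 3 w to 16 w it rose, while the list had a median ratio of 0.853 in stromal-like cells. There 1 of 14 was 2-fold higher and 4 lower, against 5.58% and 5.81% of all genes. Il6 in these cells was at 1.99 CPM in the injured library against 12.8 to 49.3 in the normal ones. Of 25 upstream regulators and partners, 4 were 2-fold higher and 1 lower at 3 w than at 3 d, and 1 was lower and none higher in the injured library than at 16 w. These are at or under the shares of all genes, which were 16.1% and 19.1% for the first comparison and 13.7% and 6.46% for the other.

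The 12 genes chosen as steady references are given for stromal-like cells. Eef1a1, a translation factor, was at 7400, 6120, 6049, 6506 and 3636 CPM, and Actb, an actin gene, was at 2525, 1164, 1356, 1478 and 4432. Taken by its summed level the list was flatter than the 10 genes, between 15731 and 20229 CPM in the 5 libraries.

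The synovial lining fibroblast-like cells, 67 to 325 per library, were not among the 4 classes compared. In these cells Fos was at 234, 1804, 2232, 2307 and 1293 CPM in the order of the libraries, and Fosb at 23.4, 337, 557, 488 and 491, with newborn discs lowest for each.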

How the data were processed

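The authors digested discs and prepared 3′ libraries by the 10x Genomics method. A matrix of raw UMI counts per gene and cell barcode, not normalized, was deposited for each of the 5 libraries. The submitters' processing notes give Cell Ranger 3.1 and mm10, whereas the headers of the deposited count matrices give Cell Ranger 4.0.0. Whether counting used strand is not given in the sources used here, and 3′ tags carry no gene length. A barcode was kept as a cell if it had over 200 UMIs with no more than 30% of them mitochondrial, which left 8467 to 14959 per library. Cells were clustered in Seurat 5.3.0 (R 4.3.3) with log-normalization, 2000 variable features, anchors over 30 dimensions and resolution 0.2. Of the 2000 integration features, 70 early and stress genes were left out. A class qualified for a cluster when at least 3 of its markers reached 2 times the 25th percentile taken over the other clusters. Classes other than stromal also needed a marker among the 10 leading genes of the cluster, or 3 for synovial lining fibroblasts. Apart from synovial lining, these classes also needed a mean log2 fold of their markers of at least 2. The qualifying class with the most markers among the leading genes gave the name. Stromal-like was the name where only that class qualified. No doublet caller was run. Cells of cluster 5, few in UMIs and led by muscle genes, and of the small remaining clusters were not used. The exceptions are the synovial lining fibroblast-like and erythroid-like cells, which are described by level.

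UMIs were summed per class and library and scaled to CPM. Intervals are 95% exact Poisson and, for ratios, exact conditional binomial (scipy 1.17.1). Genes with at least 100 UMIs in the compared libraries formed the background, and counts under 3 were set to 3. The step was tested on simulated data. Shares of variation used genes with at least 50 UMIs in every class. With 1 library per condition no test was made. The genes and lists were chosen with earlier results of these data known. Besides the 10 genes, those named from each list are the highest in stromal-like cells and those with the largest and smallest injured/16 w ratios, and the 10 most alike by Pearson's r, except that some of these are not reported here. Cebpd was not analysed here.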

Additional observations from a re-analysis of the deposited data

Results flagged for a closer look

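Each item here is a summed ratio of the 10 genes that lay above 1 in 1 class or cluster and below 1 in another within the same comparison, with both counting intervals clear of 1. The differences were not tested, since there is 1 library per condition.

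For 78 w over 16 w the ratio was 0.648 in stromal-like and 0.517 in MPh-like cells and 1.10 in EC-like cells. Every one of the 4 stromal-like clusters with enough cells was below 1 there, between 0.585 and 0.842.

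For 3 w over 3 d the ratio was 2.74 in stromal-like cluster 1, 1.57 in cluster 2 and 3.39 in cluster 3, and 0.4995 in cluster 6, which had 42 cells at 3 d. For injured over 3 w clusters 1 and 3 had ratios of 0.634 and 0.386, and clusters 2 and 6 of 1.32 and 2.64. For injured over 16 w clusters 1, 2 and 3 had 0.428, 0.945 and 0.314, and cluster 6 had 1.36. The clusters are defined on genes that themselves differ between libraries, so a cluster may not hold the same cells in each.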

How the results depend on the processing

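No value had a test, so a value is said to move when an alternative takes it outside its counting interval, which is narrow at this depth, or, for a count of genes, by over 1.5 times. The ratios meant here are those of the summed level in stromal-like cells and the geometric mean of the ratios in the 3 other classes (MC-like, MPh-like and EC-like), which was 2.17 for 3 w/3 d, 1.45 for 16 w/3 w, 0.827 for 78 w/16 w, 0.638 for injured/3 w and 0.441 for injured/16 w. Of 162 such values under the alternatives 57 moved and 105 did not, none past a 2-fold ratio in the opposite direction, and the cause was not tested.

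With every cell at equal weight the stromal-like ratios were 2.33, 1.34, 0.646, 0.707 and 0.527 in that order of comparisons, and those of the other classes 2.60, 1.25, 0.919, 0.591 and 0.474. With the stromal-like clusters at equal weight they were 2.11, 1.39, 0.673, 0.746 and 0.538. With totals that leave out mitochondrial and ribosomal protein genes the stromal-like ratios were 1.502, 1.53, 0.651 (0.6505), 0.884 and 0.577, and those of the other classes 1.93 for 3 w/3 d, 1.501 for 16 w/3 w, 0.681 for injured/3 w and 0.454 for injured/16 w. In that setting 3 genes in place of 5 were 2-fold higher at 3 w than at 3 d, and 1 in place of 0, Nr4a1, was 2-fold higher in the injured library than at 3 w, against 7.07% of all genes.

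Relative to the median gene, an alternative chosen after the data were seen, the stromal-like ratios were 1.92, 1.54, 0.676, 1.03 and 0.685, and those of the other classes 2.24 for 3 w/3 d, 0.854 for 78 w/16 w, 0.774 for injured/3 w and 0.515 for injured/16 w. There 1 gene was 2-fold higher for injured/3 w, against 10.3% of all genes, and 3 in place of 6 were 2-fold lower for injured/16 w. With cells gated by their own markers the stromal-like ratios were 1.90 for 3 w/3 d, 1.46 for 16 w/3 w, 0.817 for injured/3 w and 0.559 for injured/16 w, and those of the other classes 2.00 for 3 w/3 d, 0.672 for injured/3 w and 0.467 for injured/16 w. Without integration the stromal-like ratios were 1.87, 1.44, 0.651 (0.651 for 78 w/16 w) and 0.824 for the first 4 comparisons, and that of the other classes for 78 w/16 w was 0.818. For 3 w/3 d the stromal-like ratio was 1.83 at resolution 0.5 and 1.83 when a cell needed 1000 UMIs and no more than 10% of them mitochondrial.

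The single 2-fold call for 78 w/16 w became 0 without integration, with either equal weighting and relative to the median gene, and 2 at resolution 0.5 and under the stricter filter on cells, as Fos and Egr1 both lie at the threshold. Of 490 ratios of single genes or classes under the alternatives, 9 changed side of 1, among them Zfp36 for 16 w/3 w and Jun and Egr1 for injured/3 w. The share of variation that goes with the library stayed between 51.9% and 57.4%.

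No paired analysis was possible because there is 1 library per condition and no group has replicates. No library was left out of a group for the same reason. Depth was lowest in the injured library.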
